A study of Mus musculus with 12 samples.

Results

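Among 24918 rows of a mouse heart expression table, 46 (0.185%) were at least 0.7 log2 units higher in each of a pair of libraries than in the third library of the same group, and no row was lower by that margin in both. These 46 genes are described here. The group is the one labelled female homozygous floxed, and its replicates 1, 2 and 3 are called library 1, library 2 and library 3. The genes were chosen by the log2 differences between these 3 libraries, so those differences are given as descriptions with no test. The genes that led were Krt12, Krt5 and Aldh3a1, which are known for the surface epithelium of the eye's cornea, whereas every library is labelled as heart.

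The study asked what loss of the glucocorticoid receptor (gene Nr3c1) from heart muscle cells does to gene expression in each sex. Total RNA was sequenced from 12 libraries of untreated C57BL/6 hearts at 2 months of age, with 3 libraries in each of 4 groups: male floxed, male cardioGRKO, and those labelled female floxed and female cardioGRKO. By the titles all 4 groups carried 2 loxP-flanked receptor alleles, and the cardioGRKO groups also carried 1 copy of Cre recombinase under the αMHC promoter, which drives it in heart muscle cells. Effects of Cre and of the deletion cannot be told apart, since no group carried Cre without the floxed alleles, while the genotype field of every library says wild-type. The grouping used here is therefore that of the titles.

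The corneal epithelium is the layered, non-cornified squamous epithelium that covers the transparent front of the eye. Its cells build their intermediate filaments from the keratins KRT12 and, in the mouse, KRT5, store large amounts of a few water-soluble enzymes such as ALDH3A1 and transketolase, which are called corneal crystallins, and seal the surface with desmosomes, tight junctions and membrane mucins. The factor PAX6 holds this identity, and basal cells are anchored to the stroma through hemidesmosomes that contain type XVII collagen.

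Values are the authors' normalized log2 values, so a difference of 1 is a factor of 2 on the deposited scale. Read counts and depth are unknown, and the scale compresses differences of weakly read genes. A level near 7 need not stand for transcripts: Ddx3y, a gene of the Y chromosome, was given 7.46 to 7.74 in the 6 libraries labelled female and 10.94 to 11.11 in the male ones. Nr3c1 was lower in male cardioGRKO (10.83 to 10.88) than in male floxed libraries (11.40 to 11.42). The libraries labelled female floxed lay at 10.71 to 10.78, below those labelled female cardioGRKO (10.85 to 10.90), so the receptor transcript goes against the female genotype labels. The titles do not say that replicates are separate animals. Each p-value given further on thus rests on the scatter among these libraries alone, and that scatter may be technical. The method used, limma, draws each gene's scatter towards that of other genes at like levels. A p-value or standard error (SE) is thus not a measure of that gene's own scatter alone.

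The 5′ flanks of 3 genes are printed to show the start sites of the corneal keratin, its basal partner and a water channel. They are RefSeq windows of 250 bases before to 50 bases after the start in build GRCm38.p6, and 26 of the 46 genes matched such a window. Capitals mark TATAAA and GGGTGTGG, the letters of a TATA box and of a KLF-type box, searched on both strands. The windows lie at chr11:99422210-99422509 for Krt12, chr15:101712856-101713155 for Krt5 and chr4:41098134-41098433 for Aqp3, all on the minus strand.
Krt12: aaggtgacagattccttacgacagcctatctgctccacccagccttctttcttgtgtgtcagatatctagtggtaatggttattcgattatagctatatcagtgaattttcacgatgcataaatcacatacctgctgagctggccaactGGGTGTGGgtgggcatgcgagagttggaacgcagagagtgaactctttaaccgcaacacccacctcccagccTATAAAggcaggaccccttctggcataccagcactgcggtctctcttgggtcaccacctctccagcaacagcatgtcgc
Krt5: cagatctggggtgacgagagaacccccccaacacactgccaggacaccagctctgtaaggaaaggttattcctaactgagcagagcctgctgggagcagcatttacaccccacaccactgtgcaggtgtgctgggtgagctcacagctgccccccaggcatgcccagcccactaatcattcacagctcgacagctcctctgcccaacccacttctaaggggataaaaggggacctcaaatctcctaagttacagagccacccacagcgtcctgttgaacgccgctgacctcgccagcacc
Aqp3: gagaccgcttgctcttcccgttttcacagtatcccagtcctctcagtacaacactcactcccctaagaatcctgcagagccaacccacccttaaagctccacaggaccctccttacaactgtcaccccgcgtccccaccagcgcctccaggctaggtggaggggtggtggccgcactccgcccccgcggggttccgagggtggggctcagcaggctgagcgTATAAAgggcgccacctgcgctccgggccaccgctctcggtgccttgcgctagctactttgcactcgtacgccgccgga
Krt12 and Aqp3 each have TATAAA starting at position -29, Krt12 also has GGGTGTGG at -101, and Krt5 has neither string. TATAAA was in the windows of 6 of the 26 genes (23.1%, against 15.7% of 27025 genes), and GGGTGTGG was in 3 (11.5% against 4.09%). The AP-2 type string GCCNNNGGC was in 3 (11.5% against 18.5%) and the ETS-type string AGGAAG was in 10 (38.5% against 38.4%). These strings are short, AGGAAG was as common among the 26 genes as among all genes, and a match describes letters only.

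Krt12, the keratin used as the marker of corneal epithelial cells, had a level of 13.13 in library 1, 13.98 in library 2 and 8.35 in library 3. Its levels were 7.91, 7.58 and 7.41 in the male floxed libraries, 7.31, 7.19 and 7.16 in male cardioGRKO, and 8.49, 7.45 and 7.27 in the libraries labelled female cardioGRKO. Libraries 1 and 2 thus stood far above the other 10 libraries, and among those 10 the replicate 1 labelled female cardioGRKO and library 3 were highest. On the deposited scale Krt12 was 27.4 times as high in library 1, and 49.6 times in library 2, as in library 3.

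Krt5, a type II keratin of basal and stratified epithelial cells, had 12.19 and 13.11 in libraries 1 and 2 and 7.79 in library 3. Its male floxed levels were 7.59, 7.29 and 7.22, its male cardioGRKO levels 7.11, 7.03 and 6.98, and its levels labelled female cardioGRKO 7.91, 7.27 and 7.08. The order of the libraries was that of Krt12. Aldh3a1, the aldehyde dehydrogenase that corneal cells hold in large amounts and that clears aldehydes formed under ultraviolet light, had 12.11, 12.99 and 7.81 in libraries 1, 2 and 3. Its male floxed levels were 7.66, 7.38 and 7.26, its male cardioGRKO levels 7.17, 7.09 and 7.07, and its levels labelled female cardioGRKO 7.92, 7.24 and 7.13. No other gene of the 46 exceeded library 3 by 4 units in both libraries.

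**Figure D1:**
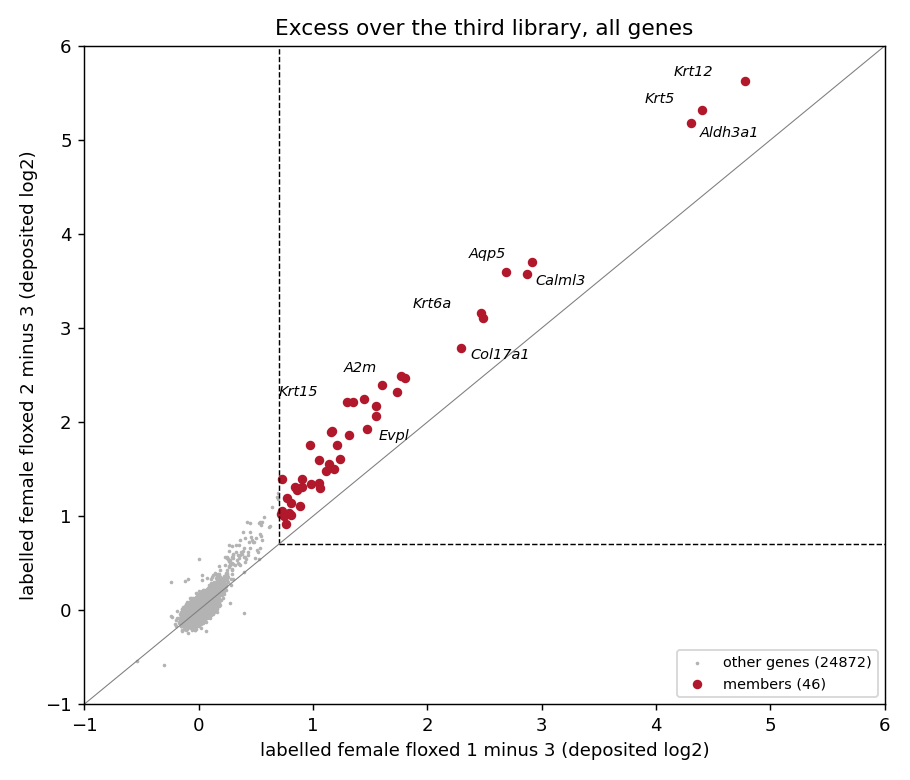
Difference of library 1 from library 3 (horizontal axis) against that of library 2 from library 3 (vertical axis), both in deposited log2 units, for all rows of the table, with the 46 genes in red and the margin of 0.7 dashed. All 46 lie above the diagonal, and Krt12, Krt5 and Aldh3a1 stand apart at more than 4 on both axes.

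Of 25 keratins with a row, 6 were among the 46 genes. Besides Krt12 and Krt5 these were Krt6a, Krt6b, Krt15 and Krt13. Krt6a and Krt6b, inducible type II keratins of stratified epithelia, exceeded library 3 by 2.47 and 3.16 (Krt6a) and by 2.49 and 3.11 (Krt6b) in libraries 1 and 2. Their coding sequences are nearly the same, so reads may have been split between the pair. Krt15, a keratin of basal and limbal cells, exceeded library 3 by 1.30 and 2.22, and Krt13, a keratin of wet stratified epithelia, by 1.16 and 1.90. The basal keratin Krt14 missed the margin at 0.62 and 0.88. Krt8 and Krt18, keratins of simple epithelia, differed from library 3 by between -0.04 and 0.04. Krt1, of the suprabasal epidermis, differed by 0.01 and 0.02 at a level of only 0.11 in library 3, where the scale compresses differences.

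Cell adhesion and envelope genes formed the next group. Of 14 desmosomal genes with a row, 3 were among the 46: Pkp1 (plakophilin 1, which links cadherins to keratin) at 1.06 and 1.30 above library 3, Dsc3 (desmocollin 3) at 0.81 and 1.01, and Dsg1a (desmoglein 1) at 0.75 and 1.00. Dsg1a has near-identical neighbours, so its reads are uncertain. The desmosomal gene Dsp, which heart muscle also uses, had 14.18 in library 3 and differed from it by 0.03 and 0.04. Of 31 genes listed under the cornified envelope, 4 were among the 46. The list was broad, and Calml3, which led it at 2.87 and 3.58, is a calmodulin-like protein of epithelial cells. The others were Evpl (envoplakin) at 1.47 and 1.93, Ppl (periplakin) at 0.90 and 1.31, and Scel (sciellin) at 0.88 and 1.11. Lor (loricrin), an envelope protein of dry skin, differed by 0.03 and 0.00 at a low level of 2.97 in library 3. Of 11 hemidesmosome and basement membrane genes only Col17a1, the type XVII collagen that anchors basal cells, was among the 46, at 2.30 and 2.79, and the next, Itgb4, had 0.36 and 0.59. Among junction genes that missed the margin, the claudin Cldn4 had 0.40 and 0.67 and E-cadherin, Cdh1, had 0.42 and 0.54.

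The levels behind 3 of these genes show the differences against the 9 other libraries. Calml3 had 9.36, 10.07 and 6.49 in libraries 1, 2 and 3 and between 6.36 and 6.64 in the 9 other libraries. Col17a1 had 8.61, 9.11 and 6.32 and between 6.18 and 6.43 in the 9 others. Pkp1 had 6.51, 6.75 and 5.46 and between 5.39 and 5.49 in the 9 others. In each of these genes library 3 lay inside the range of the 9 others, and libraries 1 and 2 did not.

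Of 23 epithelial transcription and splicing factors, 3 were among the 46. Trim29, a regulator expressed in stratified epithelia, exceeded library 3 by 1.55 and 2.06, and Elf3, an epithelial ETS factor, by 1.06 and 1.36. Pax6, the eye's master regulator, had 5.88 and 6.18 in libraries 1 and 2, 5.16 in library 3 and between 5.16 and 5.22 in the 9 others. Several other factors missed the margin: Ehf had 0.54 and 0.66, the splicing factor Esrp1 0.41 and 0.51, and Trp63, the stem cell factor of stratified epithelia, 0.29 and 0.39.

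The enzymes held 3 of 11 listed genes. Besides Aldh3a1 these were Gsto1, a glutathione transferase, and Tkt, the transketolase of the pentose phosphate pathway. Both had high levels in every library: Gsto1 had 12.87, 13.41 and 11.81 in libraries 1, 2 and 3 and 11.81 to 11.93 in the 9 others, and Tkt had 11.67, 12.16 and 10.77 and 10.61 to 10.88 in the 9 others. Adh7 (alcohol dehydrogenase 7) missed the margin at 0.69 and 1.24, and Gsta4 (a glutathione transferase for lipid aldehydes) at 0.65 and 1.10.

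Surface and secreted proteins held 6 of 34 listed genes. Muc4, a membrane mucin of the tear film surface, exceeded library 3 by 1.74 and 2.32, and Muc20, another membrane mucin, by 0.81 and 1.14. The 3 Ly6 family genes among them were Psca at 1.45 and 2.24, Lypd2 at 1.35 and 2.22, and Slurp1, a secreted protein that restrains corneal inflammation, at 1.21 and 1.75. The sixth, Anxa8 (annexin A8), exceeded library 3 by 0.85 and 1.31. Of 22 proteases and inhibitors, A2m, a broad protease inhibitor, had 1.77 and 2.49, and Tmprss11a, a membrane serine protease of squamous epithelia, had 1.14 and 1.56. Of 19 transport genes, both aquaporins listed were among the 46: Aqp5, the water channel of the corneal epithelium and glands, at 2.91 and 3.70, and Aqp3, which also passes glycerol, at 1.55 and 2.17. None of 21 growth factor and Notch genes was among them, where Fgfbp1 had 0.28 and 0.54 and Wnt4 0.23 and 0.57.

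A further 13 genes were in none of the lists, and 12 of them are given here. Asprv1, a retroviral-like protease of stratified epithelia, led them with 9.31, 10.23 and 6.63 in libraries 1, 2 and 3 and 6.41 to 6.69 in the 9 others. Mgarp, a mitochondrial protein known from the cornea, exceeded library 3 by 1.80 and 2.47, and the uroplakin-like gene Upk3bl by 1.61 and 2.39. The membrane raft proteins Mal and Mal2 had 1.31 and 1.87 (Mal) and 1.19 and 1.50 (Mal2), and Plet1 (a surface protein of epithelial progenitors) had 1.16 and 1.91. Igfbp2, which binds insulin-like growth factors, had 0.97 and 1.75, and Fam83a had 0.86 and 1.27. The gene models AI661453 and Gm9573 had 1.24 and 1.61, and 1.11 and 1.49. Emp1 (epithelial membrane protein 1) had 0.79 and 1.03, and Sdc1 (syndecan 1) 0.73 and 1.06. Upk1b and Kera were listed only as markers of other cells.

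**Figure D2:**
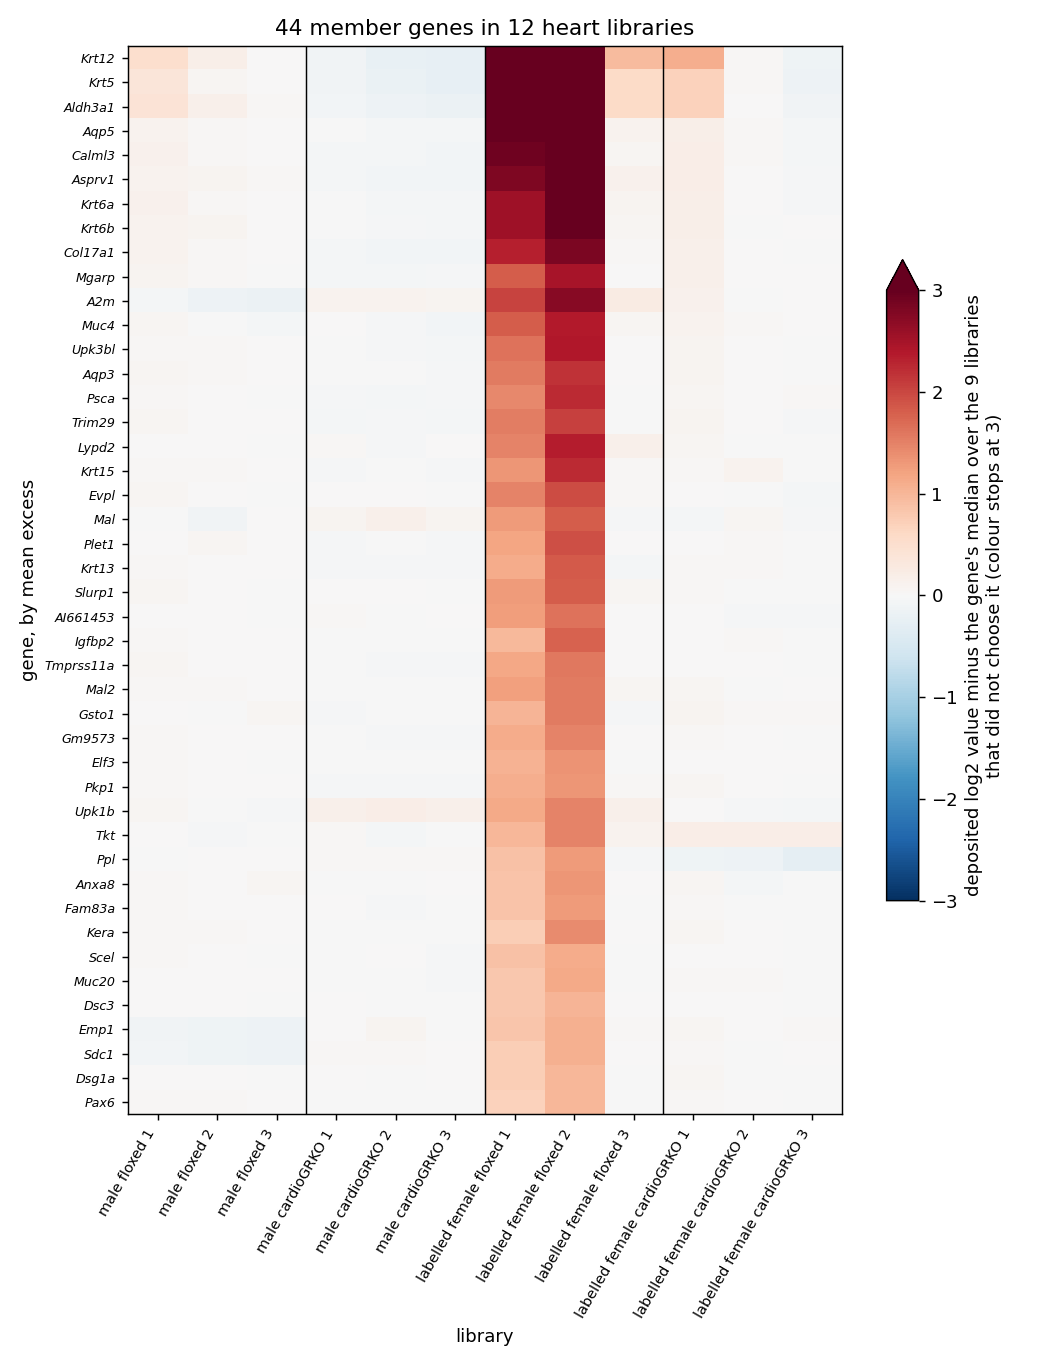
Level of 44 of the 46 genes in each of the 12 libraries, as the difference from that gene's median over the 9 libraries that the choice did not use (deposited log2 units, with the colour scale ending at 3). Genes are ordered by mean difference, libraries 1 and 2 are raised for every gene drawn, and library 3 is raised by at most 0.94.

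The values that chose the genes also describe how libraries 1 and 2 compare. Every gene was higher in library 2 than in library 1, by a median of 0.53 (0.15 to 0.92). After subtraction of library 3 on the linear scale, library 2 held a median of 1.75 times what library 1 held, from 1.27 to 2.49. On that scale Krt12 made up 27.1% of what library 2 held above library 3 over the 46 genes, Krt5 14.7%, Aldh3a1 13.5% and Gsto1 12.5%. Gsto1 thus ranked 4th by amount and 28th by log2 difference, Emp1 42nd by difference with 5.79% of the amount, and Tkt 33rd with 4.83%. Values on that scale are not per transcript length, so these shares describe the deposited values and are no count of molecules. Altogether the 46 genes made up 0.186% of the linear sum of library 1, 0.295% of library 2, 0.0539% of library 3, and 0.0481% to 0.0554% of the 9 others.

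By margin, 9 genes exceeded library 3 by at least 2 in both libraries, 21 by 1 to 2 and 16 by less than 1. The genes closest to the margin on the inner side were Pax6 (0.72 in library 1), Sdc1 (0.73) and Kera (0.73). Just outside were Nccrp1 (0.69), Adh7 (0.69) and Sfn (0.69), the last a 14-3-3 protein of stratified epithelia. The differences thus crossed the margin with no gap.

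Marker lists of other cells were set beside the corneal list. Of 10 corneal epithelial markers, 7 were among the 46, and all 10 were at least 0.1 above library 3 in both libraries, with a median mean difference of 1.31. Of 7 markers of the corneal stroma and endothelium, 1 was among the 46, Kera (keratocan, a proteoglycan of stromal keratocytes), with 5.99, 6.66 and 5.26 in libraries 1, 2 and 3. Angptl7 (0.53 and 0.93), Col8a2 (0.45 and 0.66) and Slc4a11 (0.27 and 0.53), of the stroma or the endothelium, were also higher, Lum differed by 0.04 and 0.03, and the list's median was 0.40. Kera is thus a gene of the 46 that is not epithelial, and 13 of the 46 are in none of the lists. The label of corneal epithelial transcripts therefore describes the leading genes. The corneal list includes Krt12, Krt5 and Aldh3a1, was made with earlier results known and uses the differences that chose the genes. It is thus a description and no separate support for the label.

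Of 9 conjunctival and goblet cell markers, Krt13 was among the 46 and Krt4 had 0.30 and 0.60, while the goblet cell genes Tff1 and Tff3 were listed at 0 in libraries 1, 2 and 3 and the mucin Muc5ac differed by 0.00. Of 9 airway and lung markers, Cyp2f2 had 0.25 and 0.57, and Foxj1 had 0.00 and 0.01, and Scgb1a1 0.00 in both. Of 8 tongue and oesophagus markers only Krt6b was among the 46, and Sprr3 and Crnn were listed at 0. Of 6 mesothelial markers only Upk1b was among them, at 0.99 and 1.34, and Krt19, which simple epithelia share, had 0.10 and 0.26. Upk3b and Lrrn4 differed by between -0.01 and 0.06, and Msln and Wt1 were lower than in library 3 by 0.02 to 0.17. None of the listed markers of epidermis (7), hair follicle (8), lens (11) or retina and pigment epithelium (10) was among the 46. Of these, 2 of epidermis, 4 of hair follicle and 1 of retina were listed at 0 in every library. The scale also compresses differences of weakly read genes, so a small difference in a weak marker says little about its cell type. The 8 heart muscle markers had a median of -0.04, from -0.08 to -0.03. How such transcripts came into a heart library was not tested. In bulk RNA, a different number of cells of a type and a different amount of RNA per cell cannot be told apart.

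**Figure D3:**
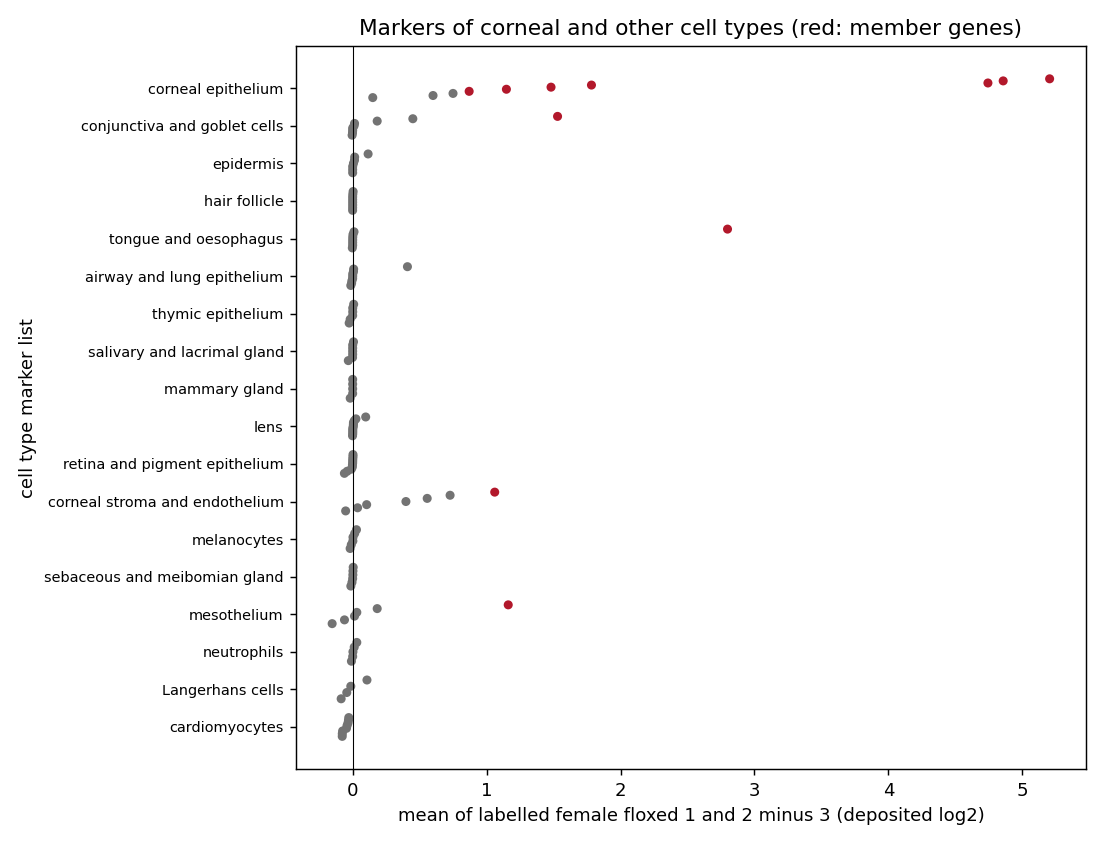
Mean difference of libraries 1 and 2 from library 3 (deposited log2 units) for each gene of 18 cell type lists, with 1 point per gene, 1 row per list and the genes among the 46 in red. The corneal epithelial list reaches 5.20 and has a median of 1.31, and the heart muscle list lies between -0.08 and -0.03.

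Some of the 46 genes are neighbours in the genome. In RefSeq gene order, counted in protein-coding genes, 12 of them fell in 5 runs with steps of at most 3 genes: Krt13 and Krt15, Krt6b with Krt6a and Krt5, Psca with Slurp1 and Lypd2, Muc4 with Muc20, and Col17a1 with Gsto1. Genes lying between members did not share the difference. Them6, between Psca and Slurp1, differed from library 3 by 0.08 and 0.14, Sfr1 by 0.00 and 0.01, and Cfap43 by -0.04 and 0.04.

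The 9 libraries outside the labelled female floxed group took no part in the choice. All 46 genes had libraries 1 and 2 above all 9. That count uses the levels that chose the genes and follows largely from the margin, so it is only a description. Library 3 lay inside the range of the 9 for 41 genes, above it for 3 (A2m, Lypd2 and Slurp1) and below it for 2 (Krt13 and Pax6). The range over the 9 was under 0.3 for 41 genes and had a median of 0.12, against 0.14 over all genes tested. The exceptions were Krt12 (1.33), Krt5 (0.93), Aldh3a1 (0.84), Ppl (0.32) and A2m (0.31). The median over the 9 was under 6 for 22 genes, and it was over 8 for Gsto1, Tkt, Emp1, Mal and Sdc1. Its middle value was 6.19 for the 46 genes and 9.07 for all genes tested. The scale compresses weak genes, so the ranges above are not compared at like levels.

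Within the 9, the order of libraries was uneven. The replicate 1 labelled female cardioGRKO was the highest for 26 of the 46 genes (56.5%, against 12.3% of all genes tested), and male floxed 1 was the highest for 10 (21.7% against 12.5%). Male cardioGRKO 3 was the lowest for 18 (39.1% against 10.6%) and male cardioGRKO 2 for 13 (28.3% against 11.1%). Krt12 in the replicate 1 labelled female cardioGRKO was at 2.23% of its linear level in library 2, in library 3 at 2.02%, in male floxed 1 at 1.49% and in male cardioGRKO 3 at 0.887%. Such low levels need not stand for transcripts, so these percentages describe the deposited scale only. Over these 9 libraries Krt5 (0.993), Aldh3a1 (0.991), Calml3 (0.981) and Aqp5 (0.978) had the highest Pearson r with Krt12, and the stromal gene Kera had 0.963. Of the 45 other genes, 14 had r over 0.9, 18 from 0.5 to 0.9, 8 from 0 to 0.5 and 5 under 0. Those under 0 included Mal (-0.56), Upk1b (-0.36), Ppl (-0.21) and Sdc1 (-0.0020). The 9 points share each library's normalization and the 3 group means, so r is a description.

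**Figure D4:**
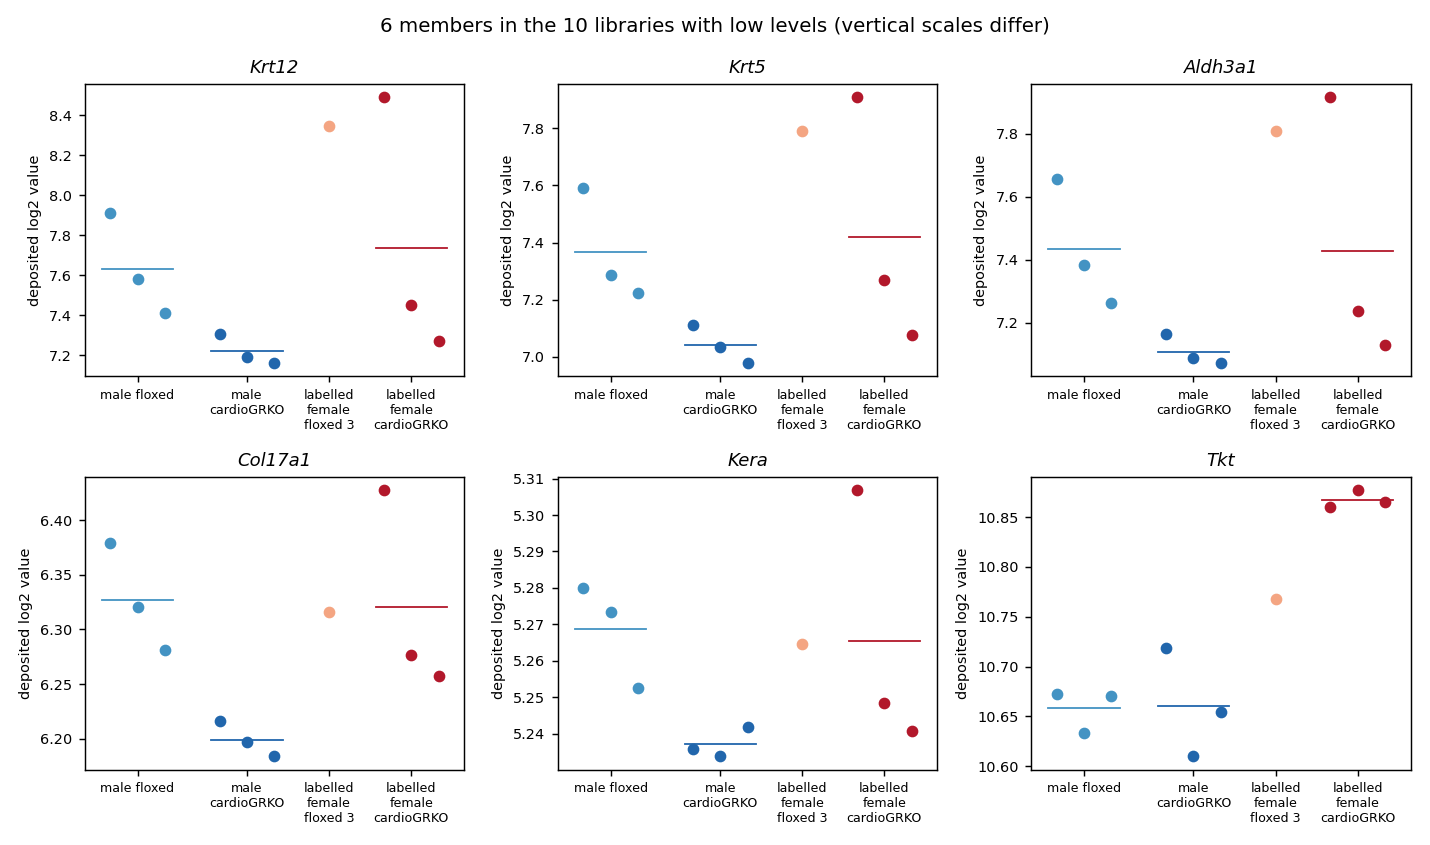
Deposited log2 level of Krt12, Krt5, Aldh3a1, Col17a1, Kera and Tkt in library 3 and the 9 other libraries, 1 point per library with the group mean as a line and a vertical scale of its own in each panel. The replicate 1 labelled female cardioGRKO is highest for all but Tkt, at 8.49 for Krt12, and Tkt is highest in all 3 libraries of that group.

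Male cardioGRKO was compared with male floxed in those 9 libraries with limma, and calls were made at a Benjamini-Hochberg adjusted p under 0.05 over 14719 genes. All 46 genes passed the filter on low values. Of the 46, 12 were called lower in male cardioGRKO, where 16% of all genes tested were called lower, and 5 were called higher, where 14.2% were. By non-overlap of the 3 libraries against 3, 29 genes (63%) were lower, against 22% of all genes tested, and 6 (13%) were higher, against 19.4%. The median difference was -0.04, and over all genes tested it was -0.0021. As their r with Krt12 shows, many of the 46 moved together over these 9 libraries. Their counts are thus not counts of independent results. With quantile normalization 21 of the 46 genes were called lower and 5 higher, against 14.5% and 14.2% of all genes tested, and Krt12 was not among those 21.

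Those called lower included the leading genes. Krt12 had 7.16 to 7.31 in male cardioGRKO and 7.41 to 7.91 in male floxed libraries, with no overlap. It fell by 0.41 on the log2 scale (SE 0.15, limma Benjamini-Hochberg adjusted p = 0.029). The standard deviation of Krt12 was 0.25 in male floxed, 0.08 in male cardioGRKO and 0.66 in the libraries labelled female cardioGRKO. Krt5 fell by 0.33 (SE 0.10, adjusted p = 0.012 from limma), and Aldh3a1 fell by 0.33 (SE 0.099, adjusted p = 0.011 from limma). The levels of these 3 genes were near or below the 7.46 to 7.74 given to Ddx3y in the libraries labelled female. Their falls thus need not stand for transcripts. Without male floxed 1 these 3 calls were lost: the differences were -0.27 for Krt12 (adjusted p = 0.22 from limma), -0.21 for Krt5 (0.15) and -0.22 for Aldh3a1 (0.14). All 3 calls were also lost with no filter on low values (adjusted p = 0.32, 0.24 and 0.24 from limma) and without limma's intensity trend (0.24, 0.17 and 0.16). Krt12 alone of the 3 also lost its call without male cardioGRKO 2 (0.072) or 3 (0.074) and with quantile normalization (0.069). The groups of the fit share 1 estimate of spread per gene, so these p-values also depend on libraries outside this comparison. Without the replicate 1 labelled female cardioGRKO the differences were the same, with adjusted p = 4.47e-06, 1.39e-05 and 6.62e-06 from limma. The other 9 called lower, Asprv1, Col17a1, Krt6b, Trim29, Calml3, Mgarp, Upk3bl, Psca and Krt6a, fell by 0.16 (Asprv1) or less. Their levels were lower still, so the same limit holds for them. Of the 46 genes, 2 were called lower without male floxed 1 (14.6% of all genes tested were), 6 without male cardioGRKO 2 (13.9%) and 7 without male cardioGRKO 3 (13.7%). Without the trend 2 were called lower (15.5%), and with no filter 1 was (10.1%).

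Those called higher were A2m, Upk1b, Emp1, Sdc1 and Mal. A2m had 7.15 to 7.17 in male cardioGRKO and 6.90 to 7.01 in male floxed libraries, and rose by 0.21 (SE 0.034, limma Benjamini-Hochberg adjusted p = 3.87e-06). Upk1b had 6.94 to 6.97 against 6.74 to 6.83 and rose by 0.17 (SE 0.028, adjusted p = 6.91e-06 from limma). Emp1 had 11.59 to 11.69 against 11.47 to 11.50 and rose by 0.15 (SE 0.025, adjusted p = 1.27e-05 from limma). The groups overlapped for none of the 5. Sdc1 rose by 0.15 and Mal by 0.16. These 5 are 10.9% of the 46 genes, below the 14.2% of all genes tested that were called higher. They thus describe single genes and not the 46 as a set. The genes called lower moved largely together, so their number is no measure of the 46 as a set either.

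The libraries labelled female cardioGRKO were compared with male cardioGRKO in the same fit. This comparison shares the male cardioGRKO libraries with the one before, so the values of both are given side by side and not as support for each other. Of the 46 genes, 13 were called higher in the libraries labelled female cardioGRKO, where 13.8% of all genes tested were, and 3 were called lower, where 13.9% were. By non-overlap, 15 (32.6%) were higher, against 20.3% of all genes tested, and 3 (6.52%) lower, against 19.8%. The median difference was 0.04 and over all genes tested 0.0012. Here too many of the genes moved together, so these counts are not counts of independent results.

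Tkt had 10.86 to 10.88 in the libraries labelled female cardioGRKO and 10.61 to 10.72 in male cardioGRKO, with no overlap, and was higher by 0.21 (SE 0.027, limma Benjamini-Hochberg adjusted p = 2.89e-07). Krt12 was higher by 0.52 (SE 0.15, adjusted p = 0.0073 from limma), with 7.27 to 8.49 against 7.16 to 7.31. The groups overlapped, and without the replicate 1 labelled female cardioGRKO the difference of Krt12 was 0.14 (adjusted p = 0.17 from limma). Krt5 went from 0.38 (adjusted p = 0.0045 from limma) to 0.13 (0.11), and Aldh3a1 from 0.32 (0.015) to 0.07 (0.39). Most levels of these 3 genes were near those given to Ddx3y in the libraries labelled female. These differences thus need not stand for transcripts either. These 3 calls were also lost with no filter (adjusted p = 0.21 for Krt12, 0.17 for Krt5 and 0.25 for Aldh3a1, from limma) and without the trend (0.14, 0.11 and 0.17). Of the 46 genes, 2 were called higher without the replicate 1 of that label (12% of all genes tested were) and 20 without its replicate 3 (11.8%). Without the trend 4 were called higher (12.7%), and with no filter 3 were (8.21%). Col17a1, higher by 0.12 (adjusted p = 0.0033 from limma), had 0.07 (0.080) without replicate 1 of that label, and it also lost its call with no filter (0.071). The other 8 called higher were Asprv1, Mgarp, Calml3, Psca, Krt15, Gsto1, Krt6b and Muc4, by 0.07 to 0.13.

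The 3 called lower were Ppl, Upk1b and Mal. Ppl had 7.64 to 7.79 against 7.94 to 7.95 and was lower by 0.22 (SE 0.034, limma Benjamini-Hochberg adjusted p = 3.53e-06). Upk1b had 6.72 to 6.78 against 6.94 to 6.97 and was lower by 0.20 (SE 0.028, adjusted p = 9.64e-07 from limma). Mal was lower by 0.12 (adjusted p = 0.0065 from limma). For these 3 genes every library labelled female cardioGRKO lay below every male cardioGRKO library. As given above, Nr3c1 goes against the genotype labels of the female libraries.

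**Figure D5:**
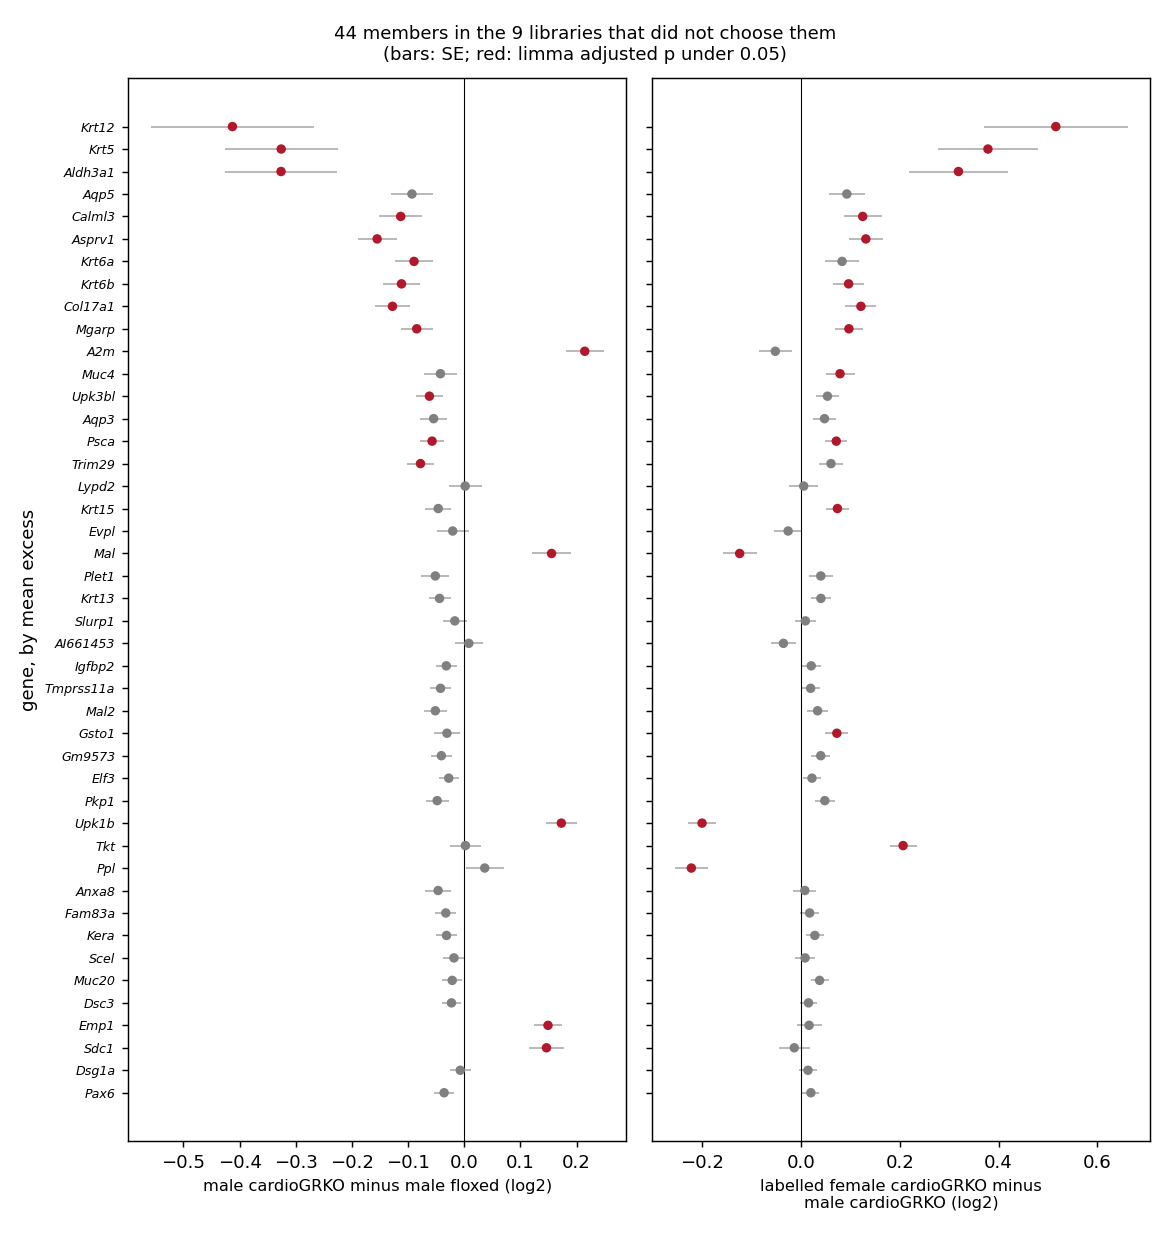
Difference of 44 of the 46 genes in male cardioGRKO against male floxed (one panel) and in the libraries labelled female cardioGRKO against male cardioGRKO (the other), in log2 units with standard errors and limma calls marked. Krt12, Krt5 and Aldh3a1 lie at -0.41, -0.33 and -0.33 in the first and at 0.52, 0.38 and 0.32 in the second.

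The comparison of cardioGRKO with floxed within the libraries labelled female used the values that chose the genes, so only its arithmetic is given. With all 3 libraries of the floxed group the 46 genes had a median difference of -0.97, from -4.08 to -0.49. Against library 3 alone the median was -0.0019, from -0.61 to 0.10. All 3 libraries of the floxed group lay above all 3 labelled female cardioGRKO libraries for 7 genes: A2m, Lypd2, Evpl, Slurp1, Tmprss11a, Upk1b and Ppl. For the other 39, Krt12, Krt5 and Aldh3a1 among them, library 3 overlapped the libraries labelled female cardioGRKO.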

How the data were processed

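The authors deposited 1 table of log2 values for 12 libraries. Per the submitters' processing notes Trim Galore, TopHat2, build mm9, HTSeq and DESeq2 were used, with no versions given. How the differences of weak genes came to be compressed is not given in the sources used here. Every sample column was used (0 were left out).

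The 46 genes and all lists were chosen with earlier results of these data known. A script applied the margin of 0.7 to the deposited values. The 9 libraries that the margin did not use were fitted with limma 3.58.1 in R 4.3.3 (1 mean per group, intensity trend, 6 residual degrees of freedom). Its tests moved each gene's spread towards the trend over all genes tested, which adds to those 6 degrees. The filter on low values kept the 14719 genes that reached log2 of 10 in 3 or more of them. Each p is two-sided, Benjamini-Hochberg adjusted over these genes and called under 0.05. The fitting script was tested on simulated data.

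Named are the 3 leading genes, up to 4 of the 46 per functional list, up to 12 outside the lists, the 3 nearest the margin on each side, up to 4 called genes per comparison and up to 2 per marker list. The other names, which complete the account of the 46 or give list members that missed the margin, were chosen after their values were seen. Alternatives changed the margin, the scaling, the filter, the trend, the libraries and the replicate block. Promoter windows are from RefSeq on GRCm38.p6, not on the table's build, and gene order is from RefSeq without coordinates. Of the 46 genes, 44 are named, and the others enter the counts and ranges but are not reported here by name.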

Additional observations from a re-analysis of the deposited data

How the results depend on the processing

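A margin of 0.5 chose 65 genes, which included all 46, and a margin of 1 chose 30. Quantile normalization chose 45 and median centring 46. In the male comparison, the count of the 46 genes called lower (12) was 1 with no filter, 21 with quantile normalization, 20 with median centring and 2 without the intensity trend. With 1 library left out it ran from 2 (without male floxed 1) to 15, with 6 and 7 without male cardioGRKO 2 and 3. The count called higher was 5 throughout these. In the comparison of the libraries labelled female cardioGRKO with male cardioGRKO, the count called higher (13) was 3 with no filter and 4 without the trend. It ran from 2 (without replicate 1 labelled female cardioGRKO) to 20 (without its replicate 3), and the count called lower (3) from 2 to 4. Over all genes, with 1 library left out, the calls ran from 3813 to 4545 (4448 with all 9 libraries) and from 3219 to 4155 (4074). Median centring gave 4674 and 4051. A limma fit of all 12 libraries called 0 of the 46 in either direction of both comparisons, and 0 had an unadjusted p under 0.05. In that fit the spread includes the libraries that chose the genes. Over all genes tested, same-numbered libraries did not deviate together (r from -0.0972 to 0.0662 over 9 pairs). An r over all genes cannot tell whether same-numbered libraries were handled together, and the titles give only the number. Krt12, Krt5 and Aldh3a1 were nevertheless highest in replicate 1 of each of the 3 groups, and the block moved the adjusted p of Krt12 from 0.029 to 0.00102 in the male comparison and from 0.0073 to 0.000105 in the other. With the replicate block the male comparison called 13 lower and 5 higher, the other 16 higher and 3 lower, and over all genes 4462 and 4075 were called. For genes tested by name, the call was lost in 37 combinations of a gene and an alternative, and no difference changed sign. Where a count moved, the cause was not tested.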
